A study of Mus musculus with 6 samples.

Results

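The proteasome is the protease that degrades ubiquitin-tagged proteins, and in antigen-presenting cells its peptides feed MHC class I molecules. Its genes were taken by name from the deposited table: 50 protein-coding genes whose symbol begins with Psma to Psmg and a digit, and 7 genes of peptide loading (Tap1, Tap2, Tapbp, Tapbpl, Erap1, Calr and Pdia3), 57 of 55304 genes in all. RNA was sequenced from mouse microglia, sorted from brain by flow cytometry on CD45 and CD11B. The 3 KO libraries carried the genotype QKIflfl; Cx3cr1cre-ert2, a conditional Qk allele with a Cre-estrogen receptor fusion driven from the Cx3cr1 locus. The 3 WT libraries carried QKIfl/fl without that fusion. All animals were C57BL/6 mice aged 4 to 5 weeks. All groups shared the floxed allele, so the Cre allele and the intended loss of the RNA-binding protein QKI cannot be told apart. Whether tamoxifen, the drug that switches such a fusion on, was given is not in the labels, nor is whether a library came from 1 animal or from a pool. P-values therefore measure the spread between these libraries, which may be technical.

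The 20S core particle is a barrel of 4 rings, the outer rings built of alpha subunits and the inner rings of beta subunits, of which the products of Psmb5, Psmb6 and Psmb7 cut peptides. In interferon-treated and immune cells the inducible subunits of Psmb8, Psmb9 and Psmb10 take the places of Psmb5, Psmb6 and Psmb7 in newly made particles, which are then called immunoproteasomes. The barrel is capped by the 19S regulatory particle, which binds and unfolds ubiquitylated proteins, or by PA28, the ring made of the products of Psme1 and Psme2. Peptides then enter the endoplasmic reticulum through the TAP transporter and are loaded on class I molecules.

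The deposited values, called normalised reads here, summed to 34360040 to 34360054 in every library. They stand for 61977830 to 75013004 reads in KO libraries and 56988261 to 77199936 reads in WT libraries, so counting error is small for all members but Psmb11. The targeted gene went against its label: Qk had 25951, 23859 and 24493 normalised reads in KO libraries, against 11180, 12556 and 11160 in WT libraries. Loss of single exons cannot be read from a value per gene, so "KO" below means the libraries labelled KO. Cx3cr1, whose locus carries the Cre fusion, averaged 58308 ± 4848 in KO libraries and 246161 ± 11084 in WT libraries (SD, n = 3 each). Microglial markers were high in both groups, with summed levels of 701657 to 784883 in KO libraries and 1420616 to 1457521 in WT libraries; 7 of 9 were lower in KO and 0 higher. Markers of other cells moved with the groups too. Summed neutrophil markers stood at 54.5 to 117 in KO libraries, against 1891 to 16783 in WT libraries, with 7 of 8 tested markers lower. For monocytes the sums were 92.6 to 157 in KO and 404 to 1548 in WT (4 of 6 tested lower). Border-associated macrophage markers summed to 2082 to 3508 in KO and 1127 to 1748 in WT (4 of 7 higher), and dendritic cell markers to 306 to 394 in KO and 184 to 260 in WT (2 of 6 higher). Among the latter, Ccr7 (69.62 to 160.22 in KO, 1.21 to 3.12 in WT) and Xcr1 were higher in every KO library. Flt3 was lower in every KO library (24.73 to 27.72 in KO, 33.16 to 44.57 in WT), and the other dendritic cell markers overlapped. T and NK cell markers summed to 2.81 to 6.41 in KO and 17.4 to 22.8 in WT, with Cd2, Gzma, Gzmb and Ncr1 at 0 in every library and both tested markers lower. B cell markers summed to 523 to 736 in KO and 853 to 954 in WT (2 of 3 tested lower). Markers of endothelial cells summed to 1038 to 1158 in KO and 2238 to 3729 in WT (4 of 6 lower), and those of astrocytes to 2707 to 3411 in KO and 5847 to 8444 in WT (5 of 6 lower). For oligodendrocytes the sums were 5425 to 6225 in KO and 7844 to 20201 in WT (3 of 6 lower), and for neurons 38 to 47.8 in KO and 145 to 237 in WT (6 of 6 lower). The part of these cells in the results below was not tested. In such bulk RNA, fewer cells of a type and less RNA per cell cannot be told apart.

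Between KO and WT at the deposited scaling, 2 of 3 inducible catalytic genes, both PA28 genes and both TAP genes rose. Most genes of the 19S particle and 2 of 3 constitutive catalytic genes were lower at that scaling. With trimmed-mean (TMM) factors 7 of 20 genes of the 19S particle were lower (35.0%, against 15.4% of all genes), and 0 of 3 constitutive ones. At the deposited scaling 7 of the 56 members tested were higher and 22 lower at an adjusted p of 0.05 (limma, Benjamini-Hochberg over 22472 genes). Psmb11 was too low to test. Over all genes tested 11.3% were higher and 23.4% lower, against 12.5% and 39.3% of the members. The share of higher members thus lay near that of all genes. Among genes above the median level (120.9 normalised reads), 16.3% were higher and 34.2% lower, against 12.7% and 40.0% of the members there. Against that background the share of lower members was closer to that of all genes, and the share of higher members was below it. The 7 higher members were Tap1, Psmg4, Psme1, Psmb9, Psmb8, Psme2 and Tap2. The groups did not overlap for 33 of the 56 members (58.9%), 8 higher and 25 lower in KO, against 47.9% of all genes tested (15.7% higher and 32.2% lower).

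The count of lower members depended on the scaling of the libraries. The deposited scaling put the median log2 fold change of all genes at -0.15 and that of the members at -0.18. With trimmed-mean (TMM) factors those medians were -0.02 and -0.04. Then 8 members were higher and 7 lower (14.3% and 12.5%), each below the 15.4% of all genes in that direction. All 7 higher members kept their call with TMM factors, and Tapbp joined them. The 7 that stayed lower were Psmd6, Psmc3, Psmc2, Psmc5, Psmd13, Psmc1 and Psmd2, all genes of the 19S particle. In the authors' deposited table the same 8 genes are higher and the same 7 lower at an adjusted p under 0.05. That table rests on the same libraries, and the share of all genes called in it was not counted. The count also rested on single libraries. It was 20 without KO A and 11 without KO B (19.3% of all genes lower in each fit), 14 without KO C (19.2%), 12 without WT A (19.2%), 19 without WT B (20.4%) and 11 without WT C (17.6%). Pairing the libraries by letter gave 8 higher and 27 lower members (14.3% and 48.2%, against 13.4% and 28.3% of all genes). With edgeR on recovered reads the counts were 8 and 7 (14.3% and 12.5%, against 15.0% and 14.9% of all genes). With DESeq2 they were 9 and 7 (16.1% and 12.5%, against 16.0% and 16.1% of all genes). Across all 15 fits, 6 members were higher in each (all of the 7 but Tap2) and the 7 genes of the 19S particle were lower in each. The fits reuse the same libraries. The share of all genes called in every fit was not counted, so these counts have no background.

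**Figure D1:**
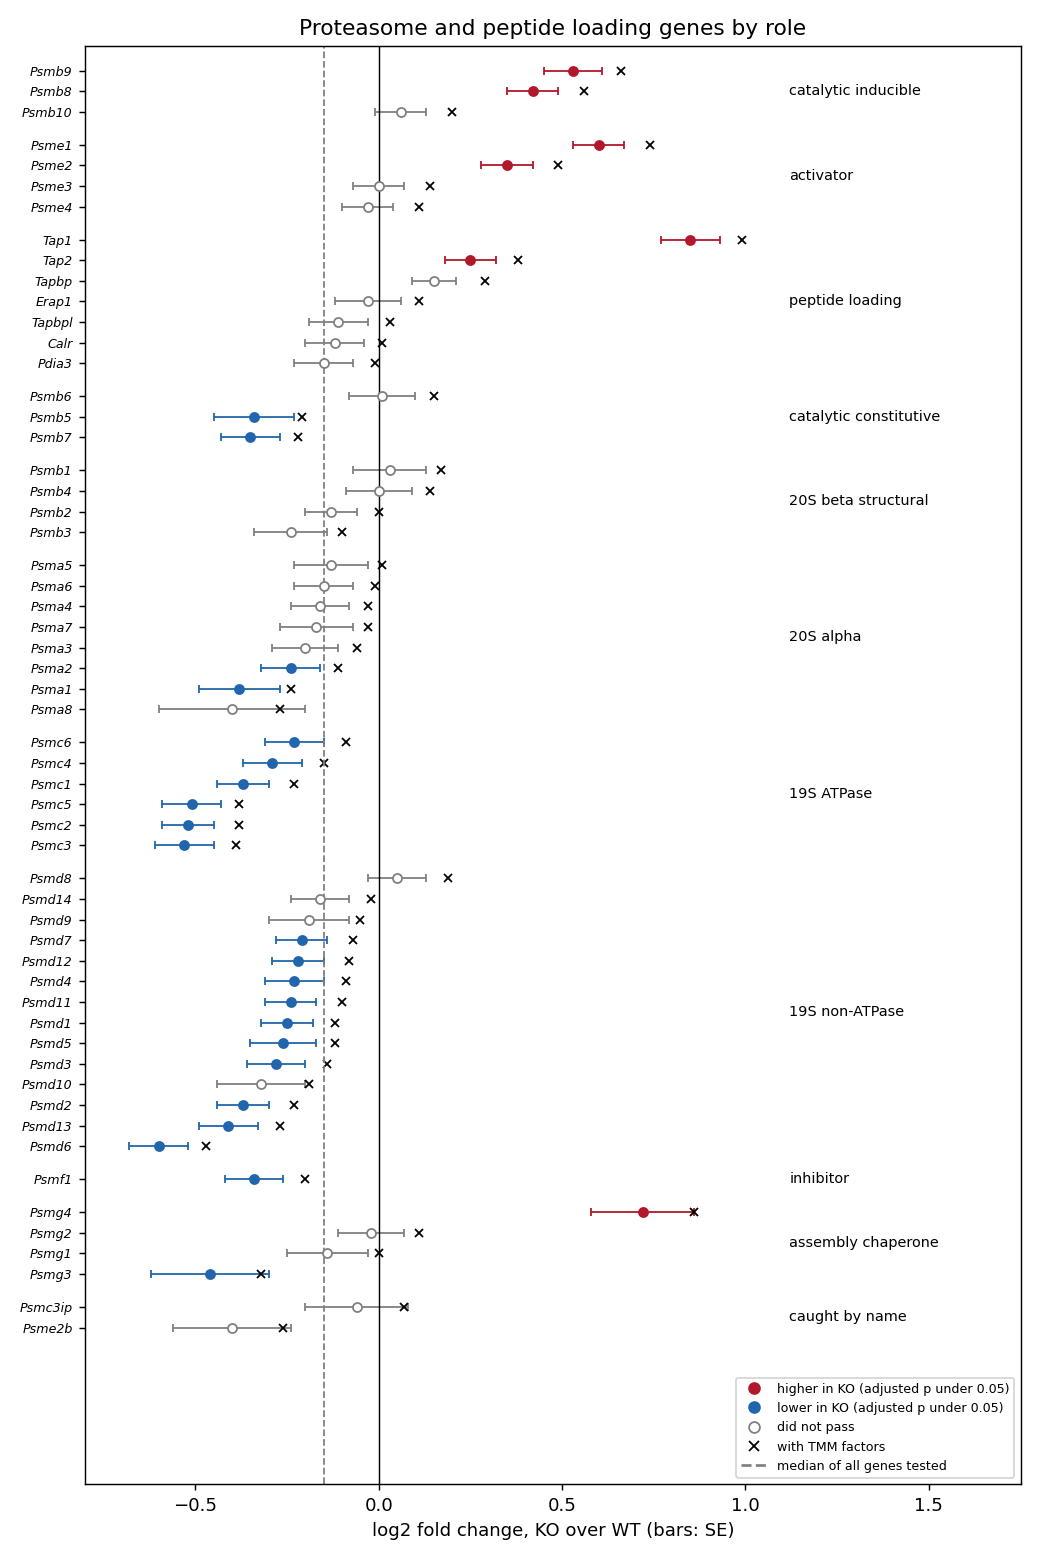
Log2 fold change of each of the 56 tested members, KO over WT, grouped by role, with the standard error as bars. Filled red points were higher and filled blue points lower at an adjusted p under 0.05, open points did not pass, crosses give the value with TMM factors and the dashed line marks the median of all genes tested, -0.15. Psmb8, Psmb9, Psme1, Psme2, Tap1, Tap2 and Psmg4 lie to the right, genes of the 19S particle mostly to the left.

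Among the inducible catalytic genes, Psmb8 and Psmb9 rose and Psmb10 did not pass. Psmb8 encodes the subunit that replaces that of Psmb5 and lies on chromosome 17 at 34198370 to 34201450 (GRCm38, plus strand). It had 3881, 3556 and 3645 normalised reads in KO libraries A, B and C, against 2842, 2603 and 2844 in WT libraries. Every KO library lay above every WT library, a 1.34-fold difference of means with a log2 fold change of 0.42 (SE 0.07, limma adjusted p = 0.00119). Psmb9, whose product replaces that of Psmb6, lies on chromosome 17 at 34182033 to 34187353 (minus strand). It had 2154, 1933 and 2150 normalised reads in KO libraries and 1463, 1360 and 1506 in WT libraries. The groups were again apart, with a 1.44-fold difference and a log2 fold change of 0.53 (SE 0.08, limma adjusted p = 0.000475). Psmb10, the counterpart of Psmb7, lies on chromosome 8 at 105935739 to 105938444 (minus strand). Its values were 2135, 1872 and 1961 in KO libraries and 1923, 1834 and 1946 in WT libraries, and the groups overlapped. Its log2 fold change was 0.06 (95% interval -0.10 to 0.23, limma adjusted p = 0.551); with TMM factors it was 0.20 (limma adjusted p = 0.0619), and DESeq2 on the recovered reads gave an adjusted p = 0.0496.

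The PA28 genes rose together. Psme1 encodes PA28 alpha and lies on chromosome 14 at 55578456 to 55581528 (plus strand). It had 6069, 5777 and 6105 normalised reads in KO libraries, against 3984, 3779 and 4067 in WT libraries, 1.52-fold higher with a log2 fold change of 0.60 (SE 0.07, limma adjusted p = 6.17e-05). Psme2 encodes PA28 beta and lies 5912 bases further along chromosome 14, at 55587441 to 55591087 on the opposite strand. Its values were 2645, 2382 and 2482 in KO libraries and 1960, 1886 and 2033 in WT libraries, 1.28-fold higher with a log2 fold change of 0.35 (SE 0.07, limma adjusted p = 0.00361). In neither gene did the groups overlap. The log2 ratio of Psme1 to Psme2 was 1.26 ± 0.05 in KO libraries and 1.01 ± 0.01 in WT libraries (SD, n = 3 each), so the alpha gene differed by more than the beta gene; the ratio was described without a test. The other activators did not pass. Psme3 encodes the nuclear activator PA28 gamma and had a log2 fold change of -0.00 (95% interval -0.15 to 0.14), and Psme4, which encodes PA200, one of -0.03 (95% interval -0.19 to 0.13). Psme2b, a near copy of Psme2 by its name, averaged 351 ± 87.5 normalised reads in KO libraries and 455 ± 37.7 in WT libraries (SD, n = 3 each). Reads may be split between it and Psme2, so both values are uncertain to that extent. Psme2b passed as lower with the libraries paired by letter (limma adjusted p = 0.0485) and without KO C. In the unpaired fit of all libraries it did not pass (limma adjusted p = 0.0762).

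The constitutive catalytic genes did not rise. Psmb5 encodes the chymotrypsin-like subunit and lies on chromosome 14 at 54614119 to 54618022 (minus strand). It had 947, 788 and 949 normalised reads in KO libraries, against 1206, 997 and 1209 in WT libraries. The groups did not overlap, and its log2 fold change was -0.34 (SE 0.11, limma adjusted p = 0.0283). Psmb7, of the trypsin-like subunit, lies on chromosome 2 at 38588036 to 38644087 (minus strand). It had 1693, 1450 and 1518 normalised reads in KO libraries and 2006, 1888 and 2058 in WT libraries, without overlap, and a log2 fold change of -0.35 (SE 0.08, limma adjusted p = 0.00642). Both calls were lost with TMM factors, where the log2 fold changes were -0.21 and -0.22 (limma adjusted p = 0.146 and adjusted p = 0.0595). The call of Psmb5 was also lost without KO B, WT A or WT C (limma adjusted p up to 0.0958), and that of Psmb7 held without each library. Psmb6, of the caspase-like subunit, lies on chromosome 11 at 70525386 to 70527649 (plus strand). Its values were 2118, 1856 and 1907 in KO libraries and 1986, 1741 and 2108 in WT libraries, and the groups overlapped with a log2 fold change of 0.01 (95% interval -0.18 to 0.21). The median log2 fold change was 0.42 over the 5 inducible and PA28 genes and -0.34 over the 3 constitutive ones, beside -0.15 over all genes; with TMM factors these were 0.56, -0.21 and -0.02.

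**Figure D2:**
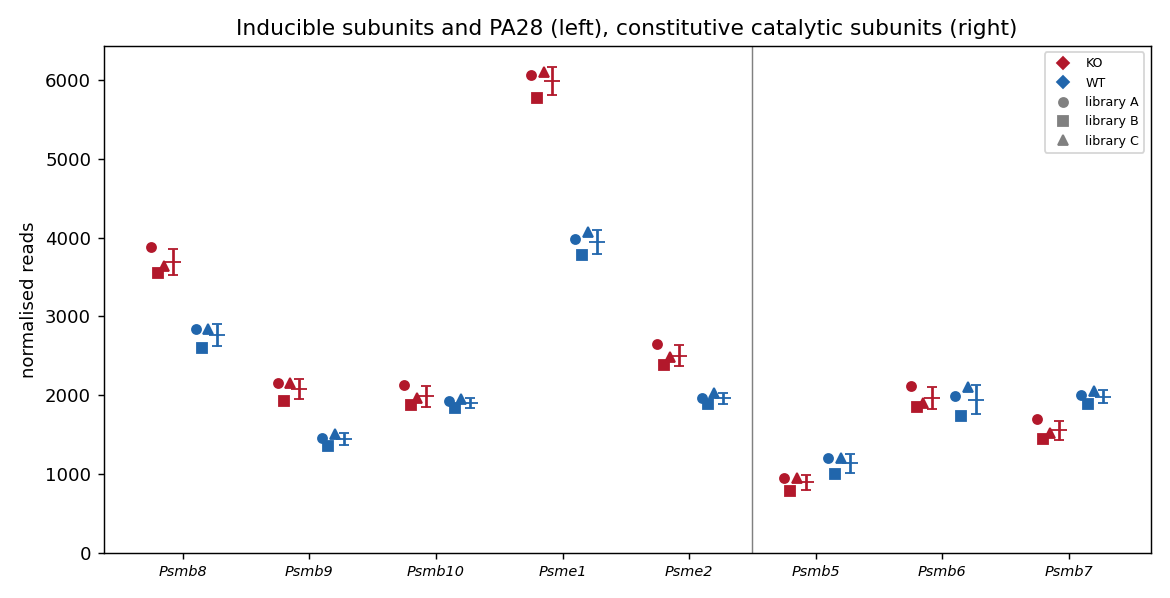
Normalised reads per library of the inducible catalytic and PA28 genes (left of the line) and of the constitutive catalytic genes (right of the line), KO in red left of WT in blue. Circles, squares and triangles are libraries A, B and C, and the dash with bars is the mean with its SD (n = 3). The groups are apart for Psmb8, Psmb9, Psme1 and Psme2 upward and for Psmb5 and Psmb7 downward, and overlap for Psmb10 and Psmb6.

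The balance of inducible to constitutive transcript at each catalytic position was set within each library, where the scaling cancels. The log2 ratio of Psmb8 to Psmb5 was 2.04, 2.17 and 1.94 in KO libraries A, B and C and 1.24, 1.39 and 1.23 in WT libraries, a difference of 0.76. For Psmb9 to Psmb6 it was 0.02, 0.06 and 0.17 in KO libraries and -0.44, -0.36 and -0.49 in WT libraries, a difference of 0.51. For Psmb10 to Psmb7 it was 0.33, 0.37 and 0.37 in KO libraries and -0.06, -0.04 and -0.08 in WT libraries, a difference of 0.42. All 3 ratios were higher in every KO library than in any WT library. The exact two-sided permutation test gave p = 0.1 for each (also 0.1 after adjustment over the 3 ratios), the smallest p this test can give with 3 libraries against 3, so it could not reach 0.05 whatever the values. Psmb10 thus stood higher relative to Psmb7 in every KO library, although its own groups overlapped.

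**Figure D3:**
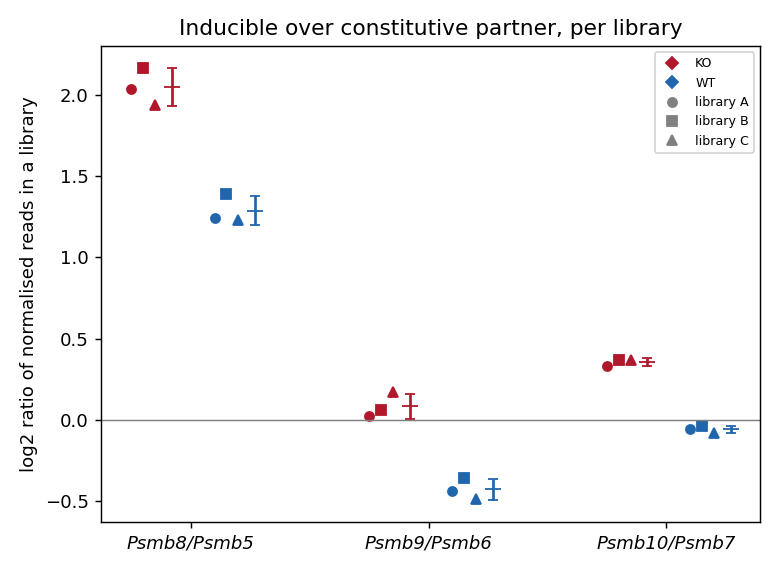
Log2 ratio of normalised reads, inducible gene over its constitutive partner, in each library, KO in red left of WT in blue, with the mean and SD (n = 3). Circles, squares and triangles are libraries A, B and C. For all 3 pairs the KO libraries lie above the WT libraries, by 0.76, 0.51 and 0.42 on average.

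Divided by the length of the deposited transcript, inducible transcripts were already abundant in WT microglia. Per kb, Psmb8 made up 69.9% to 73.2% of the Psmb8 and Psmb5 level in KO libraries and 58.8% to 61.3% in WT libraries. Psmb10 made up 52.7% to 53.3% of the Psmb10 and Psmb7 level in KO libraries and 45.5% to 46.2% in WT libraries. Psmb9 was the minor partner, at 21.8% to 23.6% of the Psmb9 and Psmb6 level in KO libraries and 16.3% to 17.6% in WT libraries. That share rests on the length used: the deposited row of Psmb9 is a transcript of 2877 bases, which GENCODE M21 annotates as a retained-intron model, while its principal transcript has 1352 bases. With principal transcript lengths the Psmb9 share was 37.5% to 40% in KO libraries and 29.6% to 31.6% in WT libraries. The rows of Psmb8, Psme1 and Tap1 name retained-intron models too, as do those of Psma7, Psmc4 and Psmd4. A change in intron retention and a change in mature transcript cannot be told apart in these values, since reads per exon were not analysed here. Psmb11, the thymus-specific catalytic gene, was listed at 0.00, 0.55 and 0.00 in KO libraries and at 0.00, 2.67 and 1.21 in WT libraries. Apart from 1 WT library they lie below what 3 reads are worth, 1.34 to 1.81 normalised reads, the limit set by counting error alone.

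Tap1 changed most among the members. Tap1 and Tap2 encode the subunits of the TAP transporter, which pumps peptides into the endoplasmic reticulum. Tap1, on chromosome 17 at 34187734 to 34197225 (plus strand), had 5102, 4369 and 5239 normalised reads in KO libraries, against 2568, 2778 and 2796 in WT libraries. It rose 1.81-fold, at a log2 fold change of 0.85 (SE 0.08, limma adjusted p = 2.8e-05), and the lowest KO library lay well above the highest WT library. Tap2, on chromosome 17 at 34203527 to 34216321 (plus strand), had 5268, 5215 and 5456 normalised reads in KO libraries and 4278, 4570 and 4590 in WT libraries. It rose by less, 1.19-fold, with a log2 fold change of 0.25 (SE 0.07, limma adjusted p = 0.0143); the call was lost without KO C or without WT A (adjusted p of at most 0.0627) and held with TMM factors (limma adjusted p = 0.00114). The log2 ratio of Tap1 to Tap2 was -0.05, -0.26 and -0.06 in KO libraries and -0.74, -0.72 and -0.71 in WT libraries, so the genes were closer to equal level in KO.

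Tapbp encodes tapasin, which holds empty class I molecules at the transporter. It had 13013, 12814 and 13124 normalised reads in KO libraries and 11359, 11807 and 11922 in WT libraries. The groups did not overlap, but its log2 fold change of 0.15 (SE 0.06) did not pass (limma adjusted p = 0.0945). It passed with the libraries paired by letter (limma adjusted p = 0.0335) and, at 0.29, with TMM factors (limma adjusted p = 0.00673). The other 4 loading genes did not pass, and their groups overlapped. Tapbpl encodes TAPBPR, a tapasin relative that edits the bound peptide. It had 1484, 1291 and 1473 normalised reads in KO libraries and 1503, 1468 and 1609 in WT libraries (log2 fold change -0.11, 95% interval -0.29 to 0.07). Erap1, the aminopeptidase that trims peptides in the endoplasmic reticulum, had 4507, 3573 and 4348 in KO libraries and 4366, 4303 and 3982 in WT libraries (-0.03, 95% interval -0.24 to 0.17). The chaperone gene Calr, of calreticulin, had 37270, 35006 and 32185 in KO libraries and 39983, 38047 and 35651 in WT libraries (-0.12, 95% interval -0.31 to 0.06). Pdia3, which encodes the disulfide isomerase ERp57, had 32779, 28139 and 29496 in KO libraries and 35181, 33198 and 31508 in WT libraries (-0.15, 95% interval -0.33 to 0.04). Per kb these chaperones were the most abundant members, at 16068 for Calr and 10979 for Pdia3 in KO and 17487 and 12130 in WT. The median over the 7 loading genes was -0.03, and 0.11 with TMM factors.

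**Figure D4:**
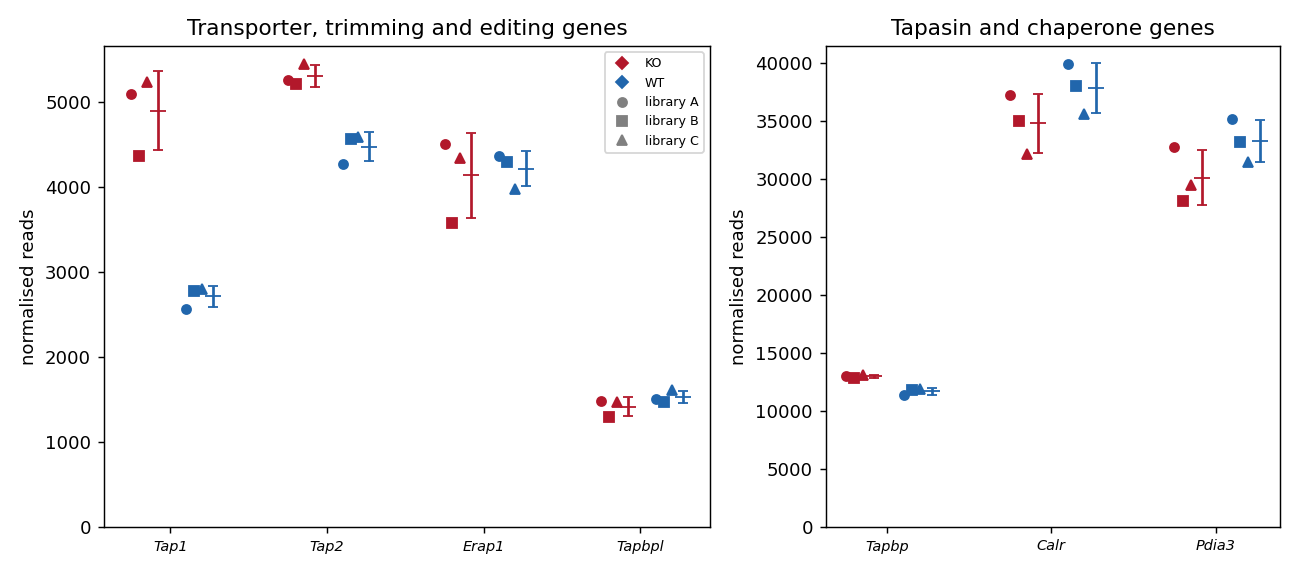
Normalised reads per library of the 7 peptide loading genes, KO in red left of WT in blue, with the mean and SD (n = 3); the panels have separate axes. Circles, squares and triangles are libraries A, B and C. Tap1, Tap2 and Tapbp are higher in every KO library than in any WT library, and Erap1, Tapbpl, Calr and Pdia3 overlap.

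Psmb9, Tap1, Psmb8 and Tap2 are neighbours within the MHC region, in that order within 34.3 kb. Only 380 bases part the deposited transcripts of Psmb9 and Tap1, which run away from each other. All 4 genes rose, with log2 fold changes of 0.53, 0.85, 0.42 and 0.25 along the chromosome, and Tapbp lies 252740 bases before them. The sources used here do not say whether counting used strand, so overlapping exons bear on some values. Exons of Gm20496 cover 12.5% of the Psmb8 transcript, those of Gm15821 15.0% of Tap2 and those of Gm19412 23.5% of Tapbp, all on the opposite strand. Likewise Nek6 covers 34.9% of Psmb7, Sirt3 17.2% of Psmd13 and Cast 14.8% of Erap1 on the opposite strand, and Mir686 12.1% of Psmb5 on its own strand.

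Promoters are shown for 6 members, that of Tap1 for the stretch it shares with Psmb9 and the other 5 as examples with a motif searched for. They are windows of 300 bases from 250 before to 50 after the RefSeq start site (GRCm38.p6, each 5′ to 3′ in the direction of its gene). Other members that hold the same motifs, listed below, are not shown. Psmb8, Psme1 and Psmg4 are among the higher members, so the examples are no measure of how motifs and calls go together. RefSeq windows were at hand for 47 of the 57 members, Tap2, Psmb7, Psmb1, Psmb2, Psmc3, Psmd3, Psmd7, Psma8, Psmg2 and Tapbpl being the others. The first window is that of Tap1 (chr17:34187306-34187605, plus strand), of which 275 bases are also in the window of Psmb9, read from the other strand. Its capitals mark the 225 bases between the start sites of Psmb9 and Tap1, which hold 1 CCAAT box, at -222 from the start of Tap1.
Tap1: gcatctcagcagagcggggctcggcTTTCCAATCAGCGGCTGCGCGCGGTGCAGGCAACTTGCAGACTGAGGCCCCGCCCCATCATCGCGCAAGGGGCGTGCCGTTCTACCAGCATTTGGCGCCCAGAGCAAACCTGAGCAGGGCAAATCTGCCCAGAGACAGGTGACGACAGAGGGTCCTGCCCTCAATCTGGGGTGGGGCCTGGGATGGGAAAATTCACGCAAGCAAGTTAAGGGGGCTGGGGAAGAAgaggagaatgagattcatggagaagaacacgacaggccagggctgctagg
In the window of Psmb8 (chr17:34197945-34198244, plus strand) the capitals mark a GAS-type motif, the palindrome TTCNNNGAA, which begins at -97.
Psmb8: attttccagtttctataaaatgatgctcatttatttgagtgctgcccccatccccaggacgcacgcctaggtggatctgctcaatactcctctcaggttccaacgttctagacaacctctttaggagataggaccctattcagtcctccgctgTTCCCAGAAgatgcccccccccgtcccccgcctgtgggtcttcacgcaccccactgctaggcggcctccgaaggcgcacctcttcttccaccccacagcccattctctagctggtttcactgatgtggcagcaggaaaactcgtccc
In Psme1 (chr14:55578244-55578543, plus strand) and Psmg4 (chr13:34162714-34163013, plus strand) the capitals mark an ISRE-type motif, GAAA and GAAA parted by any 2 bases on either strand, known from sites of interferon regulatory factors. It begins at position 10 in Psme1, on the reverse strand, and at position 16 in Psmg4.
Psme1: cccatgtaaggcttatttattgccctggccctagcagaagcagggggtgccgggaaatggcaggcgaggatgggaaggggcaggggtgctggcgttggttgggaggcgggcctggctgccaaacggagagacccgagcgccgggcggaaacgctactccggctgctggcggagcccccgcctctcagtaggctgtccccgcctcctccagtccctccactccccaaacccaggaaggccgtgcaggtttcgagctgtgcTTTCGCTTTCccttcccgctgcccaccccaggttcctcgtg
Psmg4: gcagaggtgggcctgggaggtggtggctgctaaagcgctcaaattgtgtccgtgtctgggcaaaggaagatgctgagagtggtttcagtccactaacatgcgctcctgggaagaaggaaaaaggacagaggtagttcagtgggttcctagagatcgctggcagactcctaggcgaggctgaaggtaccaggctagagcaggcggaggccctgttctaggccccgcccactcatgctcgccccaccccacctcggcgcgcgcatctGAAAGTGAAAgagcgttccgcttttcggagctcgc
In the constitutive genes Psmb5 (chr14:54617946-54618245, minus strand) and Psmb6 (chr11:70525107-70525406, plus strand) the capitals mark an antioxidant-type motif, TGACNNNGC on either strand, known from sites of NRF1 and NRF2. It begins at -47 in Psmb5 and at -9 in Psmb6.
Psmb5: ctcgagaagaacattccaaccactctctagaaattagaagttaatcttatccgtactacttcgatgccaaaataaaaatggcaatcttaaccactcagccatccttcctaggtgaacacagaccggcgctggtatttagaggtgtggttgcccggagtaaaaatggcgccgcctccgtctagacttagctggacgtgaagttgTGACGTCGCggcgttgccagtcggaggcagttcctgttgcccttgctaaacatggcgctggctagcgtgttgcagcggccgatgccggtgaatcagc
Psmb6: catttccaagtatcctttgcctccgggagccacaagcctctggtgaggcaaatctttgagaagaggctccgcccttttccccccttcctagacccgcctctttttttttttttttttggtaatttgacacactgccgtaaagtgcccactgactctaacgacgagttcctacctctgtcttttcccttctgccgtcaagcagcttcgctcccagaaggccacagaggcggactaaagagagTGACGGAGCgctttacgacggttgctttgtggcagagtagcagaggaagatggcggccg
In these windows no match overlapped a match to another motif searched. The windows of Psmb10 and Psme2 held no match to any of the 5 motifs, and are not shown.

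The ISRE-type motif was in 6 of the 47 member windows, those of Erap1, Psmb3, Psmd4, Psmd9, Psme1 and Psmg4, and in 3.44% of all 32851 promoter windows. Of these 6 genes Psme1 and Psmg4 were higher and Psmd4 lower. The GAS-type motif was in 3 windows (Psmb8, Psmd2 and Psmg1) and in 8.30% of all. The antioxidant-type motif was in 8 (Calr, Pdia3, Psmb5, Psmb6, Psmc6, Psmd12, Psmd9 and Psme4) and in 12.4% of all. The CCAAT box was in 19 and in 37.4% of all, and an NF-kB-type motif, GGGA and TTTCC parted by any base on either strand, in 0 and in 0.411% of all. A match is a string of letters and not a binding site.

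Genes of the 19S regulatory particle made up 16 of the 22 lower members. These genes were taken as the 20 Psmc and Psmd symbols other than Psmc3ip, which include the assembly chaperone genes Psmd5 and Psmd10. With the deposited scaling 16 of the 20 were lower and 0 higher (80.0%, against 23.4% of all genes). Of genes above the median level 34.2% were lower. With TMM factors 7 of the 20 were lower (35.0%, against 15.4% of all genes). Without WT C, KO B, WT A or KO C the count was 8, 9, 10 and 10. All 6 ATPase genes, Psmc1 to Psmc6, which encode the ring that unfolds substrates, were lower, with log2 fold changes from -0.53 to -0.23. Psmc3 had 2662, 2264 and 2380 normalised reads in KO libraries, against 3562, 3359 and 3617 in WT libraries (log2 fold change -0.53, SE 0.08, limma adjusted p = 0.000471). Psmc2 had 2072, 1856 and 2048 in KO libraries, against 2868, 2747 and 2937 in WT libraries (-0.52, SE 0.07, limma adjusted p = 0.000341). Psmc5, at -0.51, and Psmc1, at -0.37, were lower in every fit, and Psmc4 and Psmc6, at -0.29 and -0.23, were not called with TMM factors. Psmc4 also lost its call without KO B, KO C or WT C, and Psmc6 without KO B, KO C, WT A or WT C. In none of the 6 did the groups overlap.

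Of the 14 non-ATPase genes 10 were lower. Psmd6, of a lid subunit, had the largest fall of all members: 1161, 1059 and 1028 normalised reads in KO libraries, against 1721, 1587 and 1628 in WT libraries. Its log2 fold change was -0.60 (SE 0.08, limma adjusted p = 0.000198), and -0.47 with TMM factors. Psmd13, of another lid subunit, and Psmd2, of a large scaffold subunit of the base, had log2 fold changes of -0.41 and -0.37, and both were lower in every fit. Psmd1, Psmd3, Psmd4, Psmd5, Psmd7, Psmd11 and Psmd12 were lower by the deposited scaling, from -0.28 to -0.21, and not with TMM factors. Of these Psmd1 and Psmd3 kept their calls without 5 of the 6 libraries, and the other 5 genes without 1. Psmd4 encodes a ubiquitin receptor and Psmd5 an assembly chaperone of the base. The 4 that did not pass were Psmd10, an assembly chaperone gene at -0.32, Psmd9 at -0.19, Psmd14, the deubiquitinase of the lid, at -0.16, and Psmd8 at 0.05. Psmd10 passed as lower with the libraries paired by letter (limma adjusted p = 0.0118) and without WT B.

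**Figure D5:**
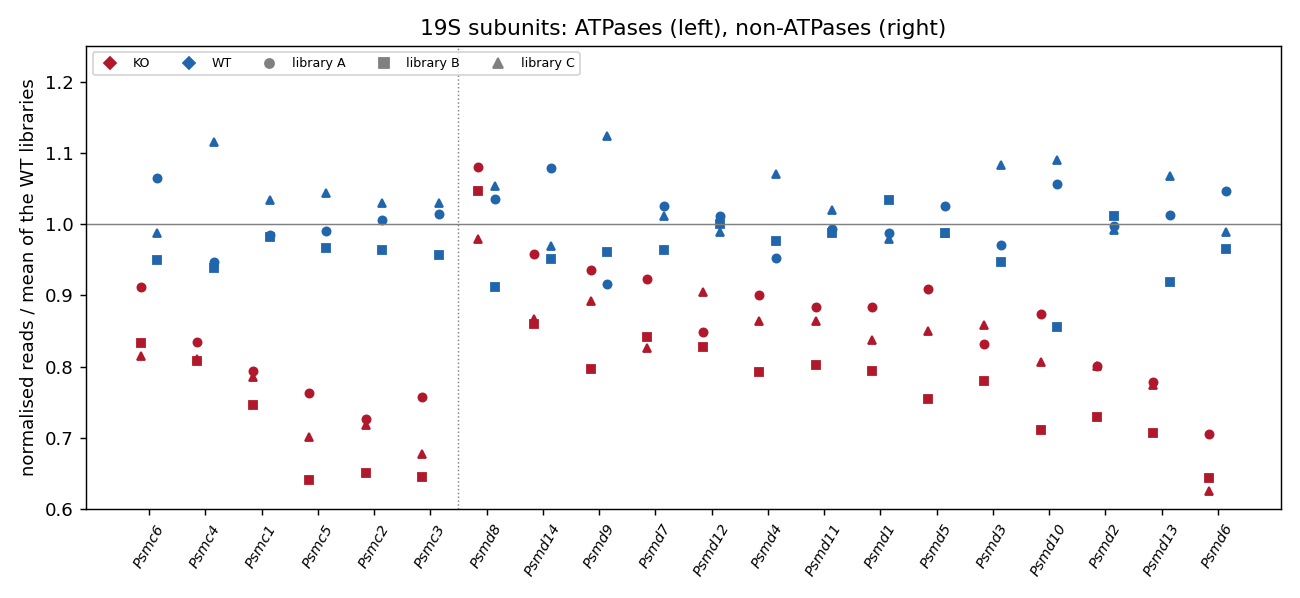
Normalised reads of the 20 Psmc and Psmd genes counted to the 19S particle in each library, divided by the mean of the 3 WT libraries of that gene. KO is in red left of WT in blue, and the axis does not start at 0. Circles, squares and triangles are libraries A, B and C, and the dotted line parts the ATPases from the non-ATPases. For the 6 ATPases every KO library lies below every WT library, while Psmd8, Psmd9, Psmd10 and Psmd14 overlap.

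Genes of the alpha ring were called lower at about the share of all genes. Of the 8 alpha genes Psma1 and Psma2 were lower (25.0%, against 23.4% of all genes), at -0.38 and -0.24, and neither was with TMM factors or without KO B, KO C or WT A. The other alpha genes of this tissue, Psma3 to Psma7, lay between -0.20 and -0.13, near the median of all genes. Psma3 and Psma7 passed as lower when the libraries were paired (limma adjusted p = 0.0169 and adjusted p = 0.0381). That made 4 of 8, against 28.3% of all genes. Psma3 also passed as lower without WT B. Psma8, which encodes the testis form of an alpha subunit, averaged 76.5 ± 18.2 normalised reads in KO libraries and 99.7 ± 3.2 in WT libraries (SD, n = 3 each), and did not pass. The structural beta genes Psmb1, Psmb2, Psmb3 and Psmb4 had log2 fold changes of 0.03, -0.13, -0.24 and -0.00. None passed, but Psmb3 did as lower with the pairing (limma adjusted p = 0.0162) and without WT B. Within a library the mean log2 level of Psmc1 to Psmc6 exceeded that of Psma1 to Psma7 by 0.14, 0.22 and 0.17 in KO libraries and by 0.32, 0.44 and 0.38 in WT libraries. The ATPases thus stood lower relative to the alpha ring in every KO library, whatever the scaling. For the 14 non-ATPase genes the same quantity was -0.14 ± 0.04 in KO libraries and -0.08 ± 0.06 in WT libraries (SD, n = 3 each). The groups overlapped, although each KO library lay below the WT library of the same letter.

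The assembly chaperones split. Psmg4, whose product helps to build the alpha ring, lies on chromosome 13 at 34162964 to 34178173 (plus strand). It had 279, 214 and 271 normalised reads in KO libraries, against 156, 138 and 167 in WT libraries, the second largest rise of the members. It was 1.66-fold higher, with a log2 fold change of 0.72 (SE 0.14, limma adjusted p = 0.00331), and no library of either group overlapped the other. Psmg3, whose product pairs with that of Psmg4, averaged 268 ± 43.1 in KO libraries and 368 ± 59.5 in WT libraries (SD, n = 3 each). Its log2 fold change was -0.46 (SE 0.16, limma adjusted p = 0.0446), a call lost with TMM factors and without any library but WT B. Exons of Gm26938 on the same strand cover 26.8% of the Psmg3 transcript. Psmg1 and Psmg2, which encode the other chaperone pair, had log2 fold changes of -0.14 and -0.02 and did not pass. Psmf1, which encodes the proteasome inhibitor PI31, was lower at -0.34 (SE 0.08, limma adjusted p = 0.00879) and not with TMM factors (limma adjusted p = 0.0653). Psmc3ip, a recombination factor gene that shares only the beginning of its symbol, was at -0.06 and did not pass; exons of Mlx cover 29.8% of its transcript on the opposite strand.

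Subunits and partners of the proteasome that the name pattern does not reach moved both ways. Of 24 such genes 5 were higher and 5 lower (20.8% each, against 11.3% and 23.4% of all genes), with a median log2 fold change of 0.00 beside -0.15 over all genes. With TMM factors 7 were higher and 1 lower (29.2% and 4.17%, against 15.4% of all genes in each direction). The 5 higher became 4 without KO A (16.7%, against 9.95% of all genes) and 3 without WT A (12.5%, against 9.90%). They became 2 without KO B, KO C, WT B or WT C (8.33%, against 9.26% to 10.3% of all genes). The 5 lower became 3 without WT C (12.5%, against 17.6% of all genes). Nfe2l2, of the stress-responsive factor NRF2, had 14056, 26301 and 15515 normalised reads in KO libraries, against 7592, 9155 and 7552 in WT libraries (log2 fold change 1.15, SE 0.19, limma adjusted p = 0.0011). Its KO libraries varied widely, with KO B far above the others. Zfand5, whose product stimulates the proteasome, was higher by 0.57 (SE 0.11, limma adjusted p = 0.00341). Ubqln1, a shuttle of ubiquitylated proteins, was lower at -0.42, and Vcp, the unfolding ATPase p97, at -0.27, a call lost with TMM factors (limma adjusted p = 0.139). Nfe2l1, which encodes NRF1, the factor that drives proteasome genes when the proteasome is inhibited, was at 0.01 (limma adjusted p = 0.941; named after its value was seen).

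Of 22 further genes of class I antigen processing 8 were higher and 4 lower (36.4% and 18.2%, against 11.3% and 23.4% of all genes), with a median log2 fold change of 0.01 beside -0.15 over all genes. With TMM factors 10 were higher and 0 lower (45.5% higher, against 15.4% of all genes). Without KO B or WT C 2 were lower (9.09%, against 19.3% and 17.6% of all genes). Nlrc5, the class I transactivator, had 1694, 1945 and 1944 normalised reads in KO libraries against 387, 398 and 384 in WT libraries, a log2 fold change of 2.25 (SE 0.08, limma adjusted p = 5.66e-08). The class I genes H2-K1 and H2-D1 had log2 fold changes of 1.56 and 1.48 (limma adjusted p = 1.48e-07 and adjusted p = 6.68e-07). These 3 fold changes all exceeded the 0.85 of Tap1, the largest rise among the members.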

How the data were processed

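The values are the authors' deposited signal, gene counts scaled to a common total per library. The submitters' processing notes name mm10/GRCm38, HOMER 4.11.1, STAR 2.7.1a, DESeq2 1.26.0 and Trimmomatic 0.39; their order, settings and use of strand are not given in the sources used here. The deposited table also holds the authors' own log2 fold changes, p-values and adjusted p-values, and a length per transcript.

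Columns named Treatment were taken as KO and those named Control as WT. One row per symbol was kept (highest mean), which left out 117 of 55421 rows. Genes with a mean above 1 entered a limma fit (3.58.1, with trend, under R 4.3.3) of log2(value + 1), called at 0.05 after Benjamini-Hochberg adjustment; that scale understates changes of low genes. In every library 100% of values were whole numbers of a fixed step (tolerance 0.1), so whole reads were recovered and edgeR 4.0.16 and DESeq2 1.42.0 were run on them; edgeR called 6713 of 22472 genes. Libraries of a group differed by more than counting noise, with a chi-square per gene of at least 27.8. The column letters match no number in the labels. Deviations from the group mean of same-lettered libraries correlated at 0.61, 0.20 and 0.30 (11588 genes). Those of unlike letters correlated at -0.36 (KO C with WT A) to 0.08 (KO B with WT C). Deviations within a group sum to 0, so these values depend on one another. The letters were taken as pairing the libraries, an inference from these same data, and the unpaired fit is the main one. The script was tested on simulated data. Members, lists and tests were chosen with earlier results of these data known. Values per library are given for the contrast and loading genes and for the largest called changes among the others (mean above 100). One gene that the rule for named genes selects is not reported here.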

Additional observations from a re-analysis of the deposited data

How the results depend on the processing

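The fits compared were other pseudocounts (0.1 and 5), other filters (none, or the median level), TMM factors, edgeR and DESeq2 on recovered reads, the pairing by letter and each library left out. No called member changed direction in any of them. Psmb8, Psmb9, Psme1, Psme2, Tap1 and Psmg4 stayed higher in all. Members called lower numbered 7 with TMM factors, with edgeR and with DESeq2 (12.5%), and 11 to 20 with a library left out (19.6% to 35.7%). For genes of the 19S particle these were 7 (35.0%) and 8 to 15 (40.0% to 75.0%). For constitutive catalytic genes they were 0 and 1 to 2 (33.3% to 66.7%). All genes called lower numbered 3453 with TMM factors (15.4%), 3353 with edgeR (14.9%) and 3607 with DESeq2 (16.1%). With a library left out they numbered 3919 to 4591 (17.6% to 20.4%). With TMM factors, edgeR or DESeq2 the median log2 fold change was 0.56 for the inducible and PA28 genes, -0.21 (-0.20 with DESeq2) for the constitutive ones, -0.04 for all members and 0.11 for peptide loading, which ranged over -0.10 to 0.07 with a library left out and was above 0 without KO B. With a library left out the first 3 ranged over 0.38 to 0.45, -0.39 to -0.26 and -0.22 to -0.13. Proteasome genes outside the name pattern called higher numbered 8 with DESeq2, 2 without a filter or with a pseudocount of 0.1, and 2 to 4 with a library left out. Genes of that list called lower numbered 1 with TMM factors, edgeR or DESeq2 (4.17%) and 3 to 5 with a library left out (12.5% to 20.8%). Class I processing genes called lower numbered 0 with TMM factors or edgeR, 1 with DESeq2 (4.55%) and 2 to 4 with a library left out (9.09% to 18.2%). Those called higher numbered 7 to 8 with a library left out (31.8% to 36.4%, against 9.26% to 10.3% of all genes). With a library left out the ratio differences were 0.70 to 0.82 for Psmb8 to Psmb5, 0.47 to 0.55 for Psmb9 to Psmb6 and 0.41 to 0.43 for Psmb10 to Psmb7. With the replicate block by letter 8 members were higher and 27 lower, and the ratio differences were 0.76, 0.51 and 0.42 (exact p = 0.25 each, the smallest that 3 pairs allow). The block added Tapbp, Psma3, Psma7, Psmb3, Psmd10 and Psme2b to the calls and removed none. Why the scalings differ was not tested.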
